A study of Mus musculus with 3 samples.

Results

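The sodium-potassium ATPase is the membrane pump that moves sodium out of a cell and potassium into it at the cost of ATP. It joins a catalytic alpha subunit, which splits ATP and carries the ions, to a beta subunit, a glycoprotein with a single membrane span that brings the alpha subunit to the cell surface and influences how the pump handles potassium. The beta subunit also reaches out of the cell and takes part in adhesion between cells. Retinal neurons rely on the pump heavily. Horizontal cells, the inhibitory interneurons that contact rods and cones in the outer retina, are held depolarised in darkness by glutamate from the photoreceptors and carry a steady inward flow of sodium.

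The genes described here are the 3 beta subunit genes Atp1b1, Atp1b2 and Atp1b3, out of 32285 genes in the count tables. They were taken from a list of Atp1 genes, and their choice in horizontal cells is followed over 3 ages. The rule itself did not use their levels, but earlier results of these data were known when they were chosen. All mice carried Cx57icre, which expresses Cre recombinase in horizontal cells under control of connexin 57, and Ai14, a Cre-dependent red fluorescent reporter. Retinas taken 6, 8 or 11 days after birth (P6, P8, P11) were dissociated with papain, red cells were sorted, and each age gave 1 droplet library read from the 3' ends of its transcripts. The number of animals in a library is not stated in the labels, there was no other genotype or treatment, and every library comes from the same pair of alleles. With 1 library per age, age and library cannot be told apart, no test between ages was possible, and all intervals below are 95% intervals for counting error only.

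Horizontal cells were barcodes with at least 1000 detected genes, at most 10% mitochondrial counts and a count of at least 2 of the transcription factor genes Lhx1, Onecut1 and Onecut2. This left 7145 P6 cells, 3153 P8 cells and 4757 P11 cells, or 94.4% to 96.2% of the barcodes within the first 2 limits. Counts are unique molecular identifiers (UMIs), which stand for single captured RNA molecules. The median P6 cell held 12161 UMIs, the median P8 cell 20671 and the median P11 cell 22106, which makes the P6 cells the shallowest. Of the listed horizontal cell genes that the rule did not use, Calb1 was at 702, 1714 and 2952 CPM at P6, P8 and P11. CPM are counts per 1000000 UMIs of the library's horizontal cells. In the same order, Tfap2b was at 1671, 1466 and 1698, Prox1 at 932, 973 and 1336 and Slc4a3 at 506, 851 and 2161 CPM. Mgarp was at 160, 2641 and 5433 CPM, and Gja10 was low, at 9.94, 26.1 and 25.4 CPM. Pairs of libraries shared between 8 and 15 barcodes, of which at most 8 were horizontal cells in both.

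In the mm10 mouse genome all 3 genes lie on the minus strand. Atp1b1 (ENSMUSG00000026576) spans chromosome 1 from 164437109 to 164458355, Atp1b2 (ENSMUSG00000041329) spans chromosome 11 from 69599736 to 69605942, and Atp1b3 (ENSMUSG00000032412) spans chromosome 9 from 96332655 to 96364442. Their coding sequences have 915, 873 and 837 bases over transcripts of 6, 7 and 7 exons. The genes are relatives, so it matters whether a read could be given to the wrong one. Aligned coding sequences were identical at 62.1% of positions between Atp1b1 and Atp1b2, 59.1% between Atp1b1 and Atp1b3 and 59.9% between Atp1b2 and Atp1b3. The longest stretch of coding sequence that each pair shares without a mismatch is shown here 5′ to 3′ on the coding strand, from the GENCODE transcripts.
Atp1b1 and Atp1b2: tggcaagagagatgaagat
Atp1b1 and Atp1b3: gaagactgaga
Atp1b2 and Atp1b3: acaagttcttgg
The stretches are 19, 11 and 12 bases long. No longer run of letters is common to the coding sequences of any pair. Over the whole of the transcripts used, with their untranslated ends, the longest shared runs were 19, 13 and 12 bases in the same order of pairs. Atp1b1 overlaps Nme7, a gene on the opposite strand, which was at 77.6, 69.9 and 45.6 CPM at P6, P8 and P11, and whether the counting used strand is not given in the sources used here.

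Atp1b1 was by far the main beta subunit transcript of horizontal cells at every age, and Atp1b2 was the member that differed most between ages. Atp1b1, the beta subunit found in many neurons and epithelia, was at 1891 CPM at P6 (interval 1881 to 1900), 1977 CPM at P8 (1966 to 1988) and 2190 CPM at P11 (2181 to 2199). That placed it 36th of 22513 detected genes at P6, 41st of 20584 at P8 and 36th of 22047 at P11. The P11 library was the highest and the P6 library the lowest, and the intervals did not overlap. Atp1b1 was 1.16-fold higher at P11 than at P6 (1.15 to 1.17), a log2 ratio of 0.21.

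Atp1b2, known also as the adhesion molecule on glia and as the partner through which retinoschisin binds the pump on photoreceptors and bipolar cells, was at 66.3 CPM at P6 (64.6 to 68.1), 35.4 CPM at P8 (33.98 to 36.95) and 21.1 CPM at P11 (20.22 to 21.999). The P6 library was the highest and the P11 library the lowest, with no overlap of the intervals. Between P6 and P8 the level was 1.87-fold lower (1.78 to 1.97), between P8 and P11 1.68-fold lower (1.58 to 1.78), and between P6 and P11 3.14-fold lower (2.99 to 3.30). The counts behind these levels were 5457, 2216 and 2176 UMIs. The mean per horizontal cell was 0.764, 0.703 and 0.457 Atp1b2 UMIs in age order. The number per cell was lower at P11 even though the cells were read more deeply.

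Atp1b3, a beta subunit made in many tissues, was at 61.3 CPM at P6 (59.6 to 63.0), 55.8 CPM at P8 (54.0 to 57.7) and 59.5 CPM at P11 (58.1 to 61.0). With this scaling by total UMIs P8 was the lowest library, and the P6 and P11 intervals overlapped. The P11 to P6 ratio was 0.971 (0.936 to 1.008), an interval that includes equality. Atp1b2 and Atp1b3 were therefore close at P6, where the first was the higher, and Atp1b3 was the higher at P8 and P11.

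**Figure D1:**
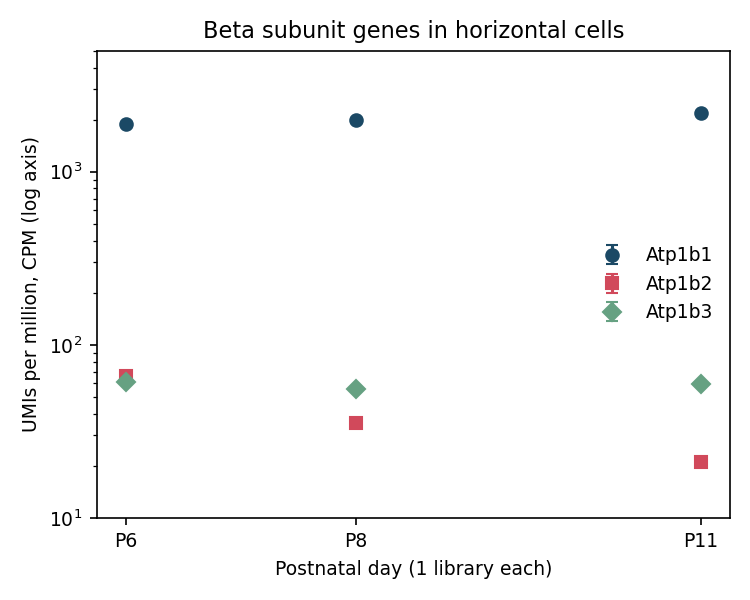
Level of each beta subunit gene in horizontal cells, in CPM on a log axis, at P6, P8 and P11. Points are single libraries, and the 95% Poisson intervals for counting error are smaller than the points. Atp1b1 lies between 1891 and 2190 CPM, Atp1b3 between 55.8 and 61.3 CPM, and Atp1b2 goes from 66.3 CPM at P6 to 21.1 CPM at P11.

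A gene is counted as apart between ages where its levels differ at least 1.5-fold and the higher one is at least 20 CPM. Of the 3 members, Atp1b2 alone was at least 1.5-fold lower at P11 than at P6, beside 12.3% of the 7161 genes measured, and none was higher, beside 7.35%. From P6 to P8 Atp1b2 alone was lower, beside 21.7% of 7067 genes, and none was higher, beside 7.97%. From P8 to P11 Atp1b2 alone was lower, beside 4.55% of 6770 genes, and none was higher, beside 10.4%. The median log2 ratio of all measured genes was -0.14 for P8 over P6, 0.07 for P11 over P8 and -0.08 for P11 over P6, against -0.90, -0.75 and -1.65 for Atp1b2. Scaling by TMM in place of total UMIs moved every log2 ratio by 0.28, -0.08 and 0.20 in these comparisons. With it the share of apart genes that were higher went from 26.9% to 62.8% for P8 over P6, from 69.5% to 51.4% for P11 over P8 and from 37.3% to 65.0% for P11 over P6. With median-of-ratios factors it was 67.5%, 42.5% and 64.9%. Under TMM Atp1b2 was still the lower at the later age, with a log2 ratio of -1.45 for P11 over P6, whereas Atp1b3 turned from -0.04 to 0.16 and Atp1b1 went from 0.21 to 0.41.

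The choice among the beta subunits can be read without any scaling, as each gene's share of the summed beta UMIs of a library. Capture may differ between genes, so these are shares of counted molecules near the 3' end and not per length. Atp1b1 made up 93.7% of beta UMIs at P6, 95.6% at P8 and 96.4% at P11. Atp1b2 made up 3.28% (3.20 to 3.37) at P6, 1.71% (1.64 to 1.79) at P8 and 0.929% (0.891 to 0.969) at P11. Atp1b3 made up 3.04% (2.95 to 3.12), 2.70% (2.61 to 2.79) and 2.62% (2.56 to 2.69). The order was Atp1b1, Atp1b2, Atp1b3 at P6 and Atp1b1, Atp1b3, Atp1b2 at P8 and P11. There were 28.5 Atp1b1 UMIs for each Atp1b2 UMI at P6, 55.8 at P8 and 103.8 at P11, whereas the number for each Atp1b3 UMI went from 30.8 to 35.4 and 36.8. With scaling by total UMIs the summed beta level was 2018, 2068 and 2270 CPM. Most of this sum was Atp1b1, so it says little about Atp1b2.

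**Figure D2:**
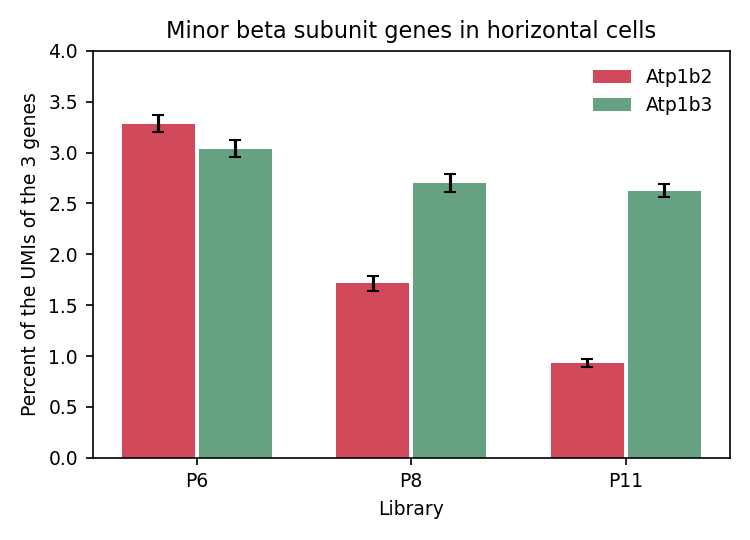
Share of the summed beta subunit UMIs of horizontal cells, in percent, taken by Atp1b2 and by Atp1b3 at P6, P8 and P11. Each bar is 1 library, and error bars are exact 95% binomial intervals for counting error. Atp1b2 goes from 3.28% to 0.929% while Atp1b3 stays between 2.62% and 3.04%.

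Atp1b1 was detected in nearly every horizontal cell, and the other members in a minority of cells at equal depth. With each cell thinned to 3000 UMIs, which left out 377 P6, 97 P8 and 90 P11 cells as too shallow, 98.8%, 99.1% and 99.8% of cells held an Atp1b1 UMI. Atp1b2 was found in 17.9%, 9.91% and 5.74% of the thinned P6, P8 and P11 cells. Atp1b3 was found in 16.5%, 15.8% and 15.8%. Without thinning, the shares were 49.9%, 46.5% and 34.5% for Atp1b2 and 47.3%, 62.9% and 69.4% for Atp1b3, the latter following the depth of the libraries. Free RNA can put UMIs into cells that do not make a gene. In the same thinned horizontal cells, Sag, which encodes the arrestin of photoreceptors, was found in 0.887%, 0.360% and 0.643%, and Slc1a3, a glutamate transporter of Müller glia, in at most 0.118%. The Atp1b2 and Atp1b3 shares lay above both genes at every age. The part of free RNA in the Atp1b2 and Atp1b3 shares was not tested.

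The median number of Atp1b1 UMIs per cell was 21, 39 and 47 in age order. At 3000 UMIs per cell the variance of Atp1b1 counts was 1.43, 1.40 and 1.33 times their mean, and for Atp1b2 and Atp1b3 the ratio lay between 0.997 and 1.05, near the value of 1 that random sampling of molecules gives. Across thinned cells the Pearson correlation between any pair of members lay between -0.009 and 0.024 in every library, and at counts this sparse such values are no finding. In unthinned cells, 30.9% had more Atp1b2 than Atp1b3 UMIs at P6 and 26.6% the reverse. At P11 it was 12.5% and 56.2%.

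Atp1b2 was lower at later ages in every horizontal-like cluster. Clustering each library by itself, with the members and all listed genes kept out of the variable genes, gave 9 clusters at P6, 11 at P8 and 11 at P11 that were named horizontal-like from their markers. Clusters of 1 library share that library and are not replicates. Atp1b2 lay between 55.9 and 71.8 CPM in the P6 clusters, between 25.5 and 46.4 CPM at P8 and between 14.2 and 24.0 CPM at P11. By these point values no horizontal-like cluster of one age reached the range of another, but intervals of the nearest clusters overlapped. The lowest P6 cluster was at 55.9 CPM (41.9 to 73.1) and the highest P8 cluster at 46.4 CPM (40.1 to 53.4). The lowest P8 cluster was at 25.5 CPM (20.6 to 31.3) and the highest P11 cluster at 24.0 CPM (20.7 to 27.6). Atp1b3 clusters overlapped at all ages, at 45.4 to 70.0, 40.4 to 69.7 and 53.5 to 63.7 CPM, and the Atp1b1 ranges also overlapped, at 1775 to 2167, 1831 to 2071 and 2036 to 2403 CPM. Atp1b2 had more UMIs than Atp1b3 in 7 of the 9 P6 clusters and fewer in the other 2 (477 against 479 and 851 against 863 UMIs). In all 9 the intervals of the pair overlapped, as in a cluster with 306 Atp1b2 and 298 Atp1b3 UMIs. Atp1b3 had more in all 11 clusters of P8 and all 11 of P11, with overlapping intervals in a P8 cluster (150 Atp1b2 and 188 Atp1b3 UMIs). These ranges leave out a P6 cluster that could not be named, with 598 cells and a median of 2699 UMIs. Of its cells, 471 met the rule for horizontal cells. Its Atp1b2 level was 40.5 CPM (32.1 to 50.4), within the range of the P8 clusters, and its Atp1b1 level was 1068 CPM. It held 80 Atp1b2 and 93 Atp1b3 UMIs.

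**Figure D3:**
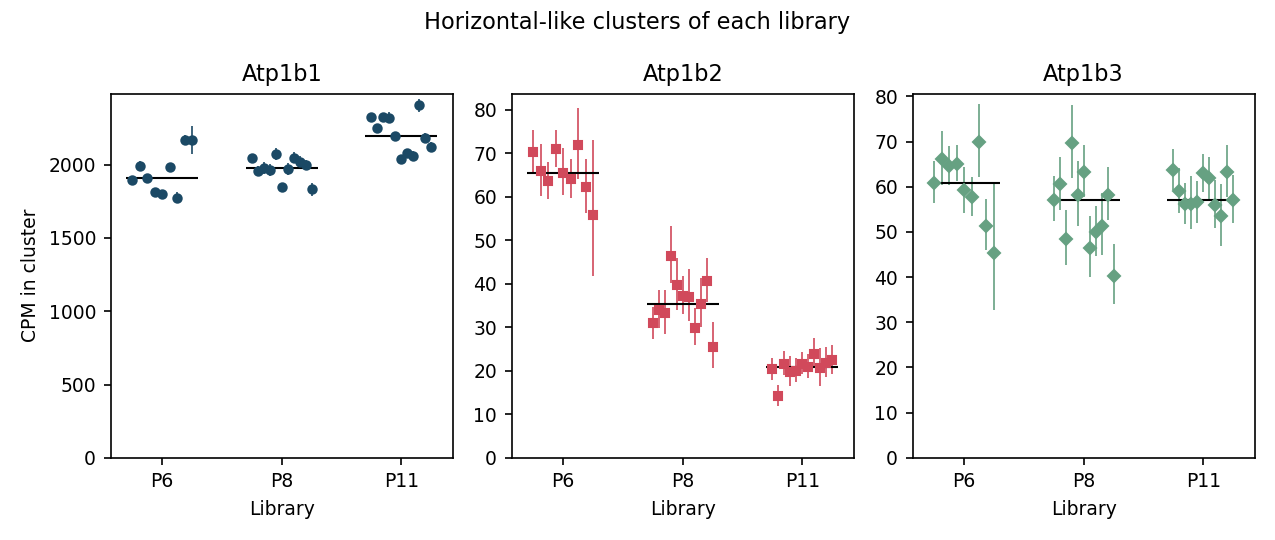
Level of each beta subunit gene, in CPM, in every horizontal-like cluster of the P6, P8 and P11 libraries. Each point is a cluster of 1 library, not a replicate, with its 95% Poisson interval, and the horizontal line is the median of the clusters. The point values of the Atp1b2 clusters form separate ranges (55.9 to 71.8, 25.5 to 46.4 and 14.2 to 24.0 CPM), but the intervals of the nearest clusters overlap. The ranges of Atp1b1 and Atp1b3 overlap between ages.

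Depth within a library moved with Atp1b2 at the later ages. With cells ranked by total UMIs and divided into 4 equal groups, the shallowest group was at 41.2 CPM at P8 against 32.8 to 35.7 CPM in the others, and at 26.3 CPM at P11 against 18.8 to 21.3 CPM. At P6 the 4 groups lay between 65.1 and 68.4 CPM. Every P6 group was above every P8 group, and every P8 group above every P11 group. For Atp1b1 at P6 the level was 1802 CPM in the shallowest group and 1945 CPM in the deepest, and for Atp1b3 it was 55.3 and 64.0 CPM.

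Horizontal cells at P6 could also be divided by Mgarp, a gene for a mitochondrial protein whose level was 160, 2641 and 5433 CPM in age order. This division was chosen after the values of the members were seen. In cells thinned to 3000 UMIs, the 2051 P6 cells with an Mgarp UMI had 64.2 CPM of Atp1b2 (58.0 to 70.9) and the 4717 without had 67.3 CPM (63.1 to 71.7), which overlap. Atp1b1 was at 2035 CPM (1999 to 2071) in cells with Mgarp and 1846 CPM (1824 to 1868) in those without. At P6 the cells with Mgarp were thus nearer to the later ages in Atp1b1, and the intervals for Atp1b2 did not separate them. Cells with and without Pyy, a peptide gene, had 68.1 and 65.7 CPM of Atp1b2 at P6, with overlapping intervals, and so had cells with and without Vax2, a transcription factor gene, at 63.6 and 66.7 CPM.

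The sort also brought in small numbers of other cells. Their clusters carried much RNA of horizontal cells, so the members are given beside the level that the summed horizontal markers of the cluster would bring at the ratio in horizontal cells. Rods are known for pumps that contain Atp1b2. In the rod-like cluster at P8 (48 cells, led by Pdc and Sag) Atp1b2 was at 431 CPM (338 to 541, 74 UMIs) and Atp1b1 at 640 CPM. Horizontal markers summed to 3875 CPM there against 10014 CPM in horizontal cells, which at their ratio would bring 13.7 CPM of Atp1b2 and 765 CPM of Atp1b1. In the rod-like cluster at P11 (42 cells) Atp1b2 was at 376 CPM (266 to 516, 38 UMIs), Atp1b1 at 257 CPM, and Atp1b3 had 1 UMI. Horizontal markers summed to 1613 CPM against 15944 CPM, which would bring 2.13 CPM of Atp1b2 and 222 CPM of Atp1b1. The Atp1b2 level was far above that of the horizontal background at both ages, and the Atp1b1 level was near it. With this background included, Atp1b2 made up 38.7% (31.8 to 46.0) of beta UMIs in the P8 rod-like cluster and 58.5% (45.6 to 70.6) in the P11 one, against 1.71% and 0.929% in horizontal cells. Thinned to 1500 UMIs, 19 of 46 P8 rod-like cells and 14 of 40 P11 ones held an Atp1b2 UMI, against 5.04% and 3.01% of horizontal cells. The median rod-like cell held 2371 UMIs at P8 and 1988 at P11.

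In the bipolar-like cluster at P11 (112 cells) Atp1b1 was at 1514 CPM, Atp1b2 at 122 CPM (104 to 143) and Atp1b3 at 75.1 CPM. Its leading genes also included Calb2, which is not a bipolar cell marker, and 33 of its cells met the rule for horizontal cells, so its values may hold other cells. Its horizontal markers would bring 900.4 CPM of Atp1b1, 8.67 CPM of Atp1b2 and 24.5 CPM of Atp1b3. In Müller-like cells, the radial glia of the retina, Atp1b1 was at 746 CPM, Atp1b2 at 58.5 CPM and Atp1b3 at 61.9 CPM at P6 (64 cells), where the horizontal markers would bring 933, 32.7 and 30.3 CPM. In the 13 Müller-like cells at P11 Atp1b2 was at 174 CPM (95.2 to 292) and Atp1b3 at 361 CPM (242 to 518), where they would bring 8.52 and 24.1 CPM. The Atp1b1 level of the rod-like and Müller-like cells themselves is not shown by these values.

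**Figure D4:**
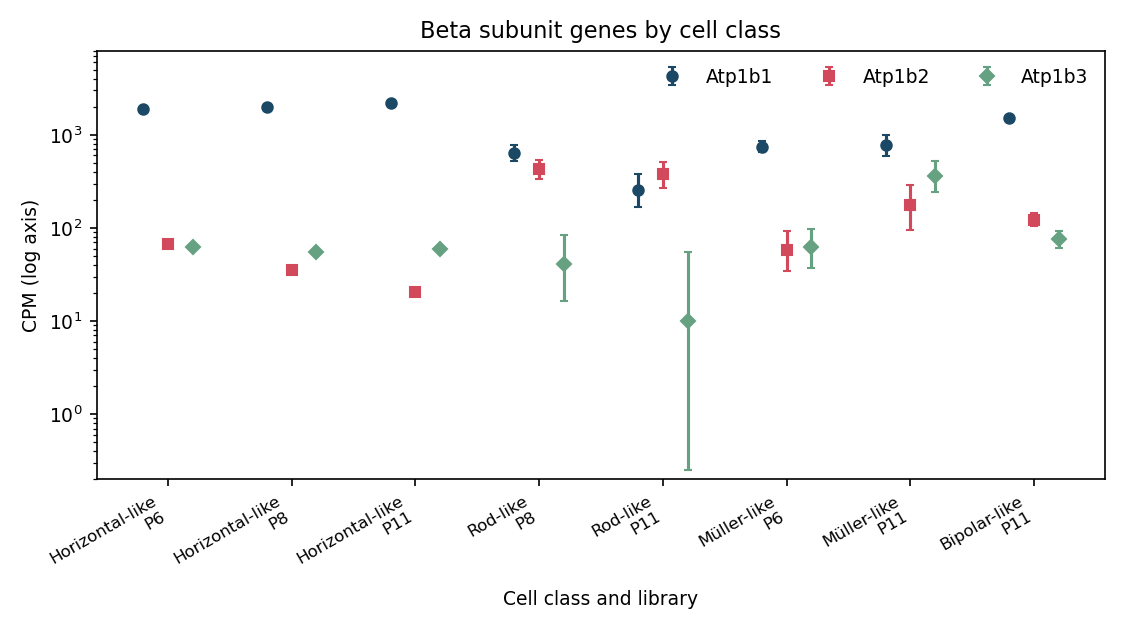
Level of each beta subunit gene, in CPM on a log axis, in the horizontal-like clusters and the other named cell classes of each library. Bars, where larger than the points, are 95% Poisson intervals for counting error. Atp1b1 is highest in the horizontal-like clusters and Atp1b2 in rod-like cells, at 431 CPM at P8 and 376 CPM at P11. RNA of horizontal cells is not subtracted.

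Since rods hold much Atp1b2, the rod markers in horizontal cells were measured beside it. All 6 rod markers were detected in horizontal cells at each age, and their summed level was 7.48, 8.08 and 5.54 CPM at P6, P8 and P11. In cells of the horizontal-like clusters it was 4.23 CPM at P6, 2.92 CPM at P8 and 3.59 CPM at P11. At the ratio of Atp1b2 to these markers in rod-like cells, this would amount to 0.0896 CPM of Atp1b2 at P8 and 0.0718 CPM at P11, against 35.2 and 20.7 CPM measured. No P6 cluster was named rod-like, so there is no such value for P6. Of the 7 Müller glia markers, 7, 6 and 7 were detected, with a summed level of 210, 201 and 298 CPM, most of it Glul (122, 137 and 196 CPM). Slc1a3, which defines these glia, was at 1.21, 0 and 0.310 CPM. At the ratio in Müller-like cells the glial markers would amount to 2.64 CPM of Atp1b2 at P6 and 2.61 CPM at P11, with all Glul counted as glial. No P8 cluster was named Müller-like, so there is no such value for P8. The part of other glial or neuronal RNA in the Atp1b2 level was not tested beyond these values.

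The proteins known to regulate the pump were next counted. Of 11 listed genes for FXYD proteins, small membrane proteins that tune the pump's affinity for its ions, and for NKAIN proteins, membrane proteins named for their interaction with the pump, only Nkain2 and Nkain3 reached 20 CPM at any age, and both were lower at P11. Nkain3 was at 166, 49.0 and 25.4 CPM, 6.52-fold lower at P11 than at P6. Nkain2 was at 29.7, 7.93 and 7.43 CPM, 4.002-fold lower. Of all measured genes, 12.3% were at least 1.5-fold lower at P11 than at P6. All 7 FXYD genes stayed at or below 4.93 CPM. Nkain3 and Nkain2 span 660 and 1201 kb, and gene span moved with the ratios between libraries. In the longest of 5 equal groups of genes by span the median log2 ratio was -0.73 for P8 over P6, 0.43 for P11 over P8 and -0.29 for P11 over P6. Atp1b2, at 6.21 kb, lies in the shortest group, whose medians were 0.27, -0.26 and 0.03. Atp1b1 and Atp1b3 lie in the third group, with medians of -0.10, 0.06 and -0.05. The part of gene span in the members' ratios was not tested.

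**Figure D5:**
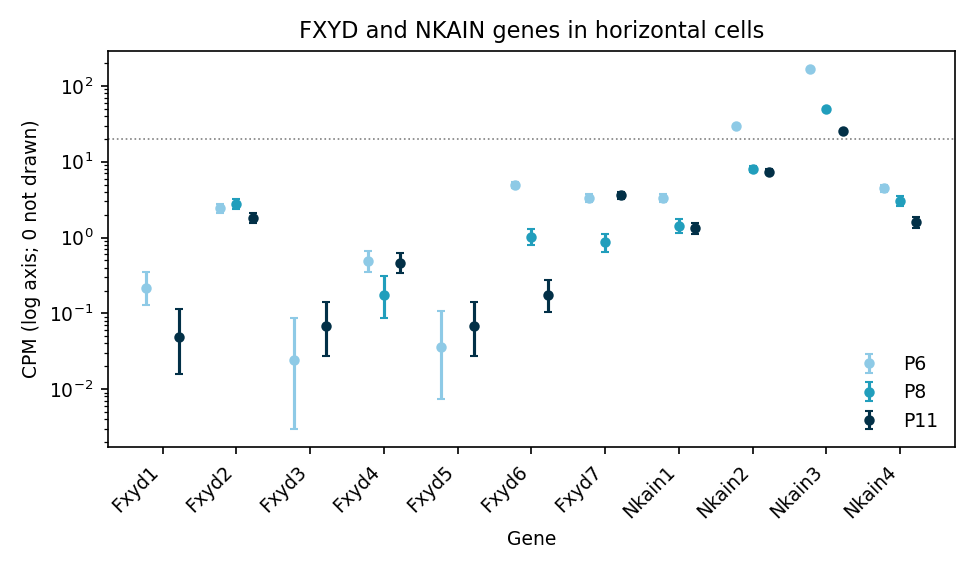
Level in horizontal cells, in CPM on a log axis, of the 7 FXYD and 4 NKAIN genes at P6, P8 and P11. Points are single libraries, bars are 95% Poisson intervals for counting error, values of 0 are not drawn, and the dotted line marks 20 CPM. Nkain3, from 166 to 25.4 CPM, is the only gene above the line at all ages, and Nkain2 is above it at P6 (29.7 CPM).

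Of the 4 other genes for beta-type subunits of pumps of this class, 1 was measured. Tmem30a, the partner of the phospholipid flippases, was at 136, 133 and 130 CPM. All 5 measured calcium pump genes of 9 listed were within 1.5-fold between P6 and P11, with a median log2 ratio of -0.06. Over all measured genes, 7.35% were at least 1.5-fold higher and 12.3% lower, and the rest were likewise within 1.5-fold. The plasma membrane pump Atp2b1 was at 494, 401 and 422 CPM, the endoplasmic reticulum pump Atp2a2 at 238, 222 and 281 CPM and Atp2b2 at 59.2, 60.2 and 86.3 CPM. Atp2b2 was 1.46-fold higher at P11 than at P6. Atp2b3 was at 22.5, 12.9 and 16.4 CPM, at least 1.5-fold lower at P8 than at P6, and the Golgi pump Atp2c1 at 100.3, 82.1 and 96.2 CPM.

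Transporters that draw on the sodium gradient differed in both directions. Of 30 listed, 15 were measured between P6 and P11, of which 3 were at least 1.5-fold higher, 4 lower and 8 between, beside 7.35% and 12.3% of all measured genes. The median log2 ratio was -0.00338, against -0.08 for all genes. From P6 to P8, 0 of 15 were higher and 7 lower, beside 7.97% and 21.7%, and from P8 to P11, 7 of 13 were higher and 1 lower, beside 10.4% and 4.55%. The sodium-calcium exchanger Slc8a1 was at 75.8, 16.8 and 11.8 CPM, 6.43-fold lower at P11. The glutamine transporter Slc38a1 was at 74.5, 31.5 and 20.4 CPM, 3.66-fold lower. The sodium-bicarbonate cotransporter Slc4a7 was at 26.1, 12.9 and 11.0 CPM, and the exchanger Slc24a5 at 73.7, 54.99 and 40.8 CPM. In the other direction, the glutamate transporter Slc1a1 was at 21.4, 21.5 and 46.4 CPM, 2.17-fold higher at P11. The sodium-bicarbonate cotransporter Slc4a4 was at 25.7, 26.7 and 41.8 CPM, 1.63-fold higher. Between P6 and P8 these genes differed by at most 1.04-fold.

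Among ankyrin, spectrin and adducin genes, which encode the membrane skeleton that binds the pump, and the gene for retinoschisin, 9 of 11 listed were measured. Between P6 and P11, 2 were at least 1.5-fold higher, 3 lower and 4 between, beside 7.35% and 12.3% of all measured genes. The median log2 ratio was 0.03. From P6 to P8, 0 were higher and 3 lower, beside 7.97% and 21.7%. From P8 to P11, 2 were higher and 0 lower, beside 10.4% and 4.55%. Ank3 was at 551, 201 and 279 CPM and Sptbn4 at 38.7, 15.1 and 25.7 CPM. Add3 was at 66.5, 75.5 and 127 CPM and Add1 at 286, 328 and 445 CPM. Of 12 listed genes for the folding and glycosylation of membrane proteins in the endoplasmic reticulum, which a beta subunit passes through, 11 were measured. Between P6 and P11, 1 was at least 1.5-fold higher, 0 lower and 10 between, beside 7.35% higher and 12.3% lower of all measured genes. Ost4, a small subunit of the oligosaccharyltransferase, was at 61.4, 211 and 120 CPM and was the only one higher. The disulfide isomerase gene Pdia3 was at 141, 98.2 and 102 CPM, Ddost, another subunit of that transferase, at 66.7, 62.8 and 48.1 CPM, and Canx, the lectin chaperone calnexin, at 228, 148 and 203 CPM.

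The genes whose levels over the 3 libraries ran most like a member's were found by the distance between log2 CPM centred on its mean, among genes of at least 50 CPM at every age. With only 3 points many genes can come close. The 5 nearest lay at distances of 0.0026 to 0.013 from Atp1b1 and 0.00415 to 0.013 from Atp1b3, but 0.116 to 0.202 from Atp1b2. Atp1b2 itself was below 50 CPM at P8 and P11, so genes of its level were not candidates. For Atp1b2 the closest were Nefm, Map1b, Sept6, Amigo2 and Sez6. Nefm, a neurofilament gene, was at 1231, 735 and 404 CPM, and Map1b, a microtubule-associated protein gene, at 689, 372 and 247 CPM. For Atp1b1 they were Snx2, Tab2, Agtpbp1, Becn1 and Qdpr, and for Atp1b3 Sptbn1, Snrnp48, Naxe, Dhx15 and Huwe1. Across horizontal cells, which share a library and differ in depth, the highest mean Pearson correlations with Atp1b1 over the 3 libraries were those of Gnas (0.43), Rtn1 (0.41), Pcsk1n (0.40), Npy (0.39) and Hspa8 (0.39), all abundant transcripts. For Atp1b2 and Atp1b3 no gene passed 0.095, and the same limit holds.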

How the data were processed

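Single-cell RNA was read in 3 libraries, 1 each of P6, P8 and P11. The deposited values are raw UMI counts per gene and barcode, which the authors made with Cell Ranger 7.1.0 and mm10 according to the submitters' processing notes. No annotation release or setting for intronic reads is given in the sources used here. The P6 library held 9896 barcodes with 87939202 UMIs, the P8 library 4635 with 65546590 and the P11 library 5517 with 105561999. Doublets were not called. Leaving out the 5% of cells with most UMIs is an alternative in their place.

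Counts were summed over horizontal cells and scaled to CPM by total UMIs. Intervals are 95% (exact Poisson, conditional binomial or Clopper-Pearson). Clusters came from scanpy 1.11.5 (2000 variable genes, 30 components, 15 neighbours, Leiden resolution 1). A class was named from its markers. TMM factors came from edgeR 4.0.16. The computations were tested on simulated data. Gene positions came from GENCODE, matched for 32158 of 32285 gene IDs.

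The members and lists were chosen with earlier results of these data known. Named list genes reach 20 CPM at any age, at most the 6 farthest from equal between P6 and P11. For likeness the 5 nearest genes are named. A gene that the rule would name is not reported here. The catalytic alpha subunit genes were not analysed here.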

Additional observations from a re-analysis of the deposited data

Results flagged for a closer look

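The barcodes left out of the horizontal cells also carried the 3 members, above the limit that a count of 0 allows. In barcodes below 1000 detected genes, Atp1b1 was at 1270, 1860 and 1582 CPM in the P6, P8 and P11 libraries. Atp1b2 was at 98.2, 86.1 and 157 CPM there, above its level in horizontal cells of each library, and Atp1b3 at 55.9, 73.1 and 59.2 CPM. The summed rod markers in these barcodes were at 1005, 1314 and 6809 CPM. Their part in the Atp1b2 level was not tested. In barcodes above 10% mitochondrial UMIs, Atp1b1 was at 1808, 2462 and 2395 CPM, Atp1b2 at 60.4, 33.3 and 16.9 CPM and Atp1b3 at 71.6, 91.2 and 91.3 CPM. In these the order of the ages for Atp1b2 was the order seen in horizontal cells.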

How the results depend on the processing

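Atp1b2 was lower at the later age, by at least 1.5-fold, in each of 3 comparisons under 10 of 10 alternatives. The fold lay between 2.74 and 3.33 for P11 against P6 and between 1.62 and 1.82 for P11 against P8. For P8 against P6 it lay between 1.503 and 1.89. Its lowest value, with median-of-ratios factors, was thus at the limit of 1.5. For P11 over P6 its log2 ratio was -1.45 with TMM, -1.46 with median-of-ratios factors and -1.74 with cells thinned to 3000 UMIs. For Atp1b1 the ratio was 0.41 with TMM, 0.41 with median-of-ratios factors, 0.24 as a mean over cells, 0.19 thinned, 0.22 without the 5% of cells with most UMIs and 0.20 in cells of horizontal-like clusters only, an alternative chosen after seeing the data. For Atp1b3 it was 0.16 with TMM and 0.15 with median-of-ratios factors, the opposite sign to -0.04. The Atp1b3 ratio for P8 over P6 also changed sign, from -0.13 to 0.14 with TMM and 0.18 with median-of-ratios factors. Which library was lowest in Atp1b3 thus depends on the scaling. The other alternatives moved the P11 over P6 ratios of the 3 members, and the Atp1b3 ratio for P8 over P6, by less than the counting error. The steps between neighbouring ages also depended on the scaling. With median-of-ratios factors the Atp1b3 ratio for P11 over P8 went from 0.09 to -0.03. With the same factors the Atp1b1 ratio went from 0.06 to 0.38 for P8 over P6 and from 0.15 to 0.03 for P11 over P8. The genes at least 1.5-fold apart depend on the minimum level, since it sets how many genes are measured. For P11 over P6, 526 higher and 883 lower became 214 and 297 at 100 CPM and 3631 and 7748 with no minimum. For P8 over P6, 563 and 1532 became 322 and 440, and 3802 and 8362. For P11 over P8, 704 and 308 became 242 and 167, and 4537 and 5056. No paired analysis was possible because each age had 1 library. Depth limits Atp1b2 and Atp1b3 most, at about 1 UMI per cell or fewer.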

Other observations

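At P6 a cluster of 164 cells that could not be named, led by Otx2os1, Zfp804b, Samsn1 and Fabp7, had Atp1b2 at 218 CPM (181 to 259), Atp1b1 at 591 CPM and Atp1b3 at 31.6 CPM. At P8 a cluster of 49 cells led by Zfp804b, Cartpt, Otx2os1 and Neurod4 had Atp1b2 at 139 CPM (101 to 186), Atp1b1 at 746 CPM and Atp1b3 at 43.2 CPM. Both clusters were above the horizontal cells of their library in Atp1b2. Over all cells of unnamed clusters, horizontal markers summed to 4477 CPM at P6 and 5731 CPM at P8. Their part in these levels was not tested.

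At P11 a further cluster that could not be named held 200 cells, of which 156 met the rule for horizontal cells, with a median of 3032 UMIs. Its Atp1b2 level was 17.6 CPM (9.35 to 30.02), within the range of the horizontal-like clusters, and its Atp1b1 level was 1525 CPM (1437 to 1616), below that range.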
